A study of Drosophila melanogaster with 6 samples.

Results

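The 10 genes described here encode proteins of the Yb body and of piRNA processing on the mitochondrial surface in Drosophila melanogaster: fs(1)Yb, armi, vret, SoYb, shu, zuc, Gasz, mino, daed and papi. They were taken by name from what is known of the pathway, with earlier results of these data known, and all 10 were found among 17633 gene rows of the count table. Polyadenylated RNA was sequenced from whole ovaries of females aged 3 to 6 days, in 3 libraries of each of 2 genotypes. The first genotype was flamDeltaProm/flamDeltaProm, in which both X chromosomes lacked the promoter of flamenco (flam). The second was flamDeltaProm/FM7, in which the same deletion stood over the balancer X chromosome FM7. The titles call these controls WT, whereas their genotype field names FM7, and every library therefore carried at least 1 copy of the deletion. Both genotypes had +/+ on the other chromosomes. FM7 is an X chromosome with its own inversions and alleles, and all 3 controls and no homozygote carried it. An effect of the deletion on any gene, X-linked or autosomal, therefore cannot be told apart from that of the balancer. Nothing in the labels tells if the libraries of a genotype came from separate animals, and p-values then measure only the spread between these libraries, which may be technical.

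PIWI-interacting RNAs (piRNAs) are small RNAs that guide PIWI proteins to transposon RNA. In the somatic follicle cells of the fly ovary, long precursor transcripts such as that of flam collect in perinuclear granules named Yb bodies, next to mitochondria. There the precursors are handed to the endonuclease Zucchini on the outer mitochondrial membrane, which cuts them into piRNAs that are loaded onto Piwi. Germ cells use most of the same machinery in their nuage, whereas fs(1)Yb is known for its expression in the soma of the gonad. The study concerns the transcription factor Traffic jam and this somatic pathway, and the comparison asks whether RNA of the processing machinery differs in ovaries that have lost the flam promoter on both chromosomes.

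Library totals ran from 19564819 to 23181058 counts. On principal components, the genotypes stood apart on the first (68.8% of variance) and FM7 control 2 on the second (12.8%). flam RNA (FBgn0267704) was lower in homozygotes, at 0.507, 0.251 and 0.760 CPM (counts relative to the scaled library size) in homozygotes 1 to 3, against 1.93, 1.97 and 1.92 CPM in FM7 controls 1 to 3, or -1.93 as log2 fold change (SE 0.39, edgeR's adjusted p = 0.0119). Markers of both germ cells and follicle cells, the main cells of an ovary, were present in every library. The germ cell list summed to 7383 to 7815 CPM in homozygotes and 7792 to 8608 CPM in controls, and the follicle cell list to 621 to 668 CPM in homozygotes and 617 to 682 CPM in controls. Over all tested genes edgeR called 11.7% higher and 7.75% lower at an adjusted p under 0.05. Among 18 tested follicle cell genes, 5 rose and 5 fell in homozygotes. Among 16 germ cell genes, 3 fell (gus, pgc and me31B) and 0 rose by edgeR, with 5 higher and 6 lower at an unadjusted p under 0.05. DESeq2 called 2 higher and 5 lower, and limma-voom 0 higher and 3 lower. With library sizes alone the direction turned, to 3 higher and 0 lower, and 0 were lower with the replicate block or when any 1 library but FM7 control 3 was left out (4 lower and 3 higher without that one; 2 higher without homozygote 1).

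None of the 10 genes passed the test between the genotypes. In the main fit, with scaled library sizes, the intervals of 9 of them left room only for small differences in whole-ovary RNA. Germ cells use most of the same machinery, so a difference in follicle cells alone could go unseen here, and this was not tested. By edgeR's quasi-likelihood test, 0 of 10 were higher and 0 lower in homozygotes at an adjusted p under 0.05, and 0 of 10 had an unadjusted p under 0.05. DESeq2 and limma-voom also called 0. With library sizes alone edgeR called 0 as well, but 3 of 10 were higher at an unadjusted p under 0.05. Over all 9150 genes tested, 19.5% were called (11.7% higher and 7.75% lower). All 10 members passed the filter on low counts, with 109 to 5575 counts in a library. Their median log2 fold change was 0.02, and that of all tested genes was -0.01. The fitted folds of the 9 autosomal members lay between 0.933 and 1.07. For these 9, the 95% intervals of the fold lay between 0.853 and 1.17, inside a 1.2-fold change in either direction. This bound was not part of the plan, and intervals of the other fits were not set against it. For fs(1)Yb, the member with the fewest counts, the interval was wider, from 0.952 to 1.66. The 10 genes together had 794, 816 and 788 CPM in homozygotes 1 to 3 and 788, 775 and 798 CPM in FM7 controls 1 to 3. The groups overlapped, with a mean of 799 ± 15.1 CPM in homozygotes and 787 ± 11.6 CPM in controls (SD, n = 3 each, exact permutation test, two-sided, p = 0.5, where 0.1 is the smallest p that 3 against 3 libraries allow).

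**Figure D1:**
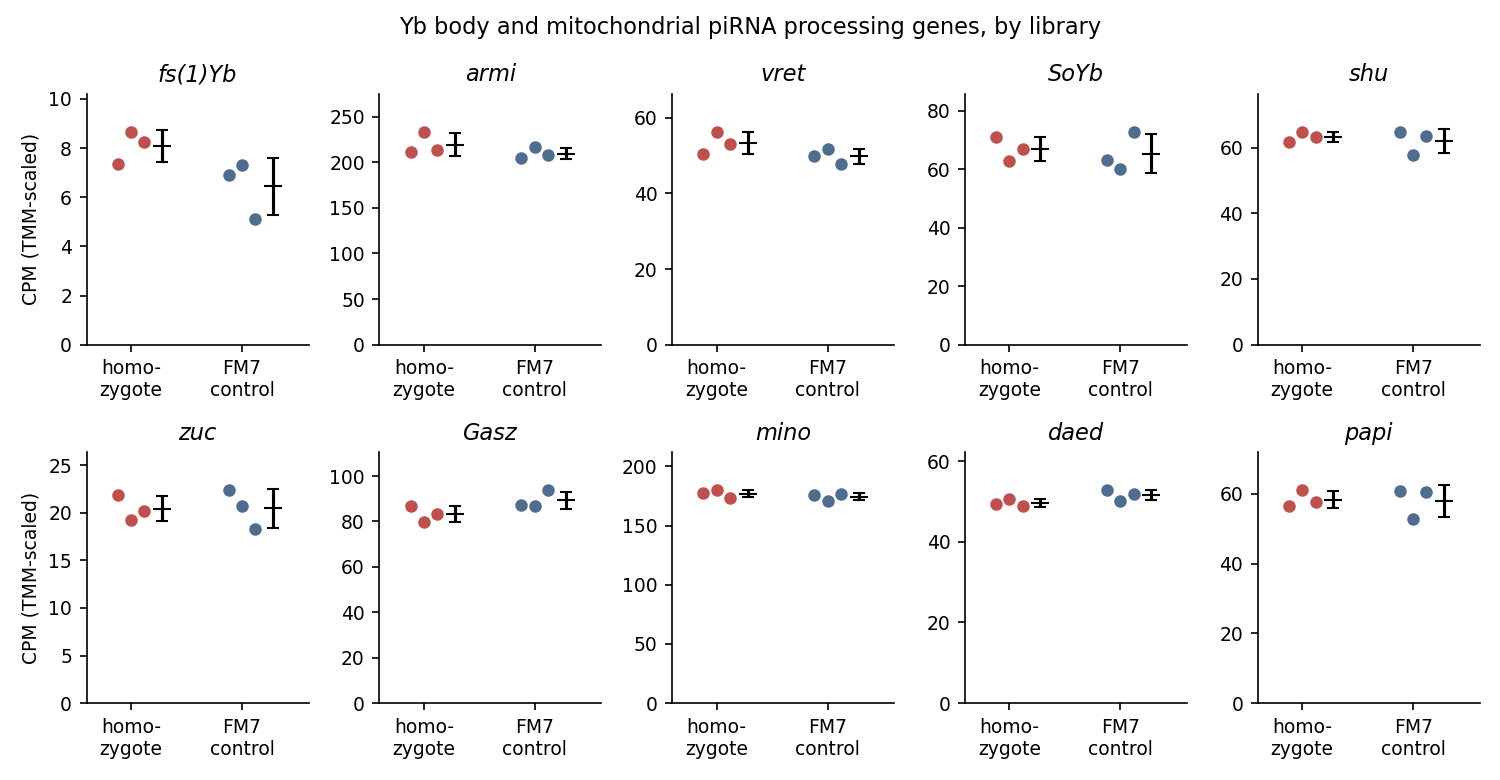
CPM of each of the 10 genes in every library, with a panel per gene and the vertical axis starting at 0. Points are homozygous libraries (left, red) and FM7 control libraries (right, blue), and bars are the mean and SD of 3 libraries. The points of the genotypes overlap in 9 panels, and in that of fs(1)Yb the lowest homozygote stands at 7.36 CPM and the highest control at 7.30 CPM.

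fs(1)Yb (FBgn0000928; X, 2720468 to 2724158, plus strand, BDGP6.54) encodes the Tudor and helicase-related protein Yb, which forms the Yb body. It had 174, 207 and 195 counts in homozygotes 1 to 3 and 154, 137 and 109 counts in FM7 controls 1 to 3. On the scaled library this was 7.36, 8.66 and 8.24 CPM in homozygotes and 6.90, 7.30 and 5.11 CPM in controls. The groups did not overlap, by a gap of less than 0.1 CPM between homozygote 1 and control 2, and control 3 was the lowest library. Over all tested genes, 21.6% had every homozygote above every control, and 20.1% had every homozygote below. The mean was 8.08 ± 0.665 CPM in homozygotes and 6.44 ± 1.17 CPM in controls (SD, n = 3 each), and edgeR gave 0.33 as log2 fold change (SE 0.18, adjusted p = 0.214). Without FM7 control 3 the log2 fold change was 0.18 (adjusted p = 0.409). Counting error alone gives this gene a coefficient of variation of 7.22% in homozygotes and 8.66% in controls, and the measured ones were 8.22% in homozygotes and 18.1% in controls. Of 1605 tested genes on X, 20.4% were called, and of 7514 autosomal genes 19.3%. Its neighbours fs(1)Ya (127 bases beyond its end, same strand) and CG2701 (140 bases before its start, other strand) had log2 fold changes of -0.10 (adjusted p = 0.22, edgeR) and 0.02 (adjusted p = 0.764).

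SoYb (FBgn0051755; 2L, 9996706 to 10002736, minus strand), the sister of Yb, encodes a related Tudor protein. It had 71.0, 63.0 and 66.8 CPM in homozygotes 1 to 3 and 63.1, 60.1 and 72.8 CPM in FM7 controls 1 to 3. The ranges overlapped almost wholly, and the highest and the lowest library were both controls. The log2 fold change was 0.03 (SE 0.08, adjusted p = 0.791, edgeR). CG31875 lies on the same strand and shares 5.03% of the exon length of SoYb, and its counts were 18.2% to 31.3% of those of SoYb, so a few reads may be counted for both. The ratio of fs(1)Yb to SoYb was 0.121 ± 0.0171 in homozygotes and 0.1003 ± 0.0268 in controls (SD, n = 3 each, exact permutation test, two-sided, p = 0.4). BoYb, the third gene of this family, known from germ cells, averaged 39.4 CPM in homozygotes and 40.1 CPM in controls, and it did not pass the test (adjusted p = 0.762, edgeR).

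armi (FBgn0041164; 3L, 3461317 to 3466314, plus strand) encodes Armitage, an RNA helicase that moves precursor RNA between Yb body and mitochondrion. Its RNA was at 211, 233 and 213 CPM in homozygotes and 204.7, 216 and 207 CPM in controls. Control 2 stood above homozygotes 1 and 3, and the log2 fold change was 0.07 (SE 0.06, adjusted p = 0.436, edgeR). CG46463, annotated on the same strand over 99.6% of the exon length of armi, had 99.6% to 99.8% of its counts in each library, so the value of armi is that of the shared locus. vret (FBgn0263143; 3R, 22742954 to 22745581, minus strand) encodes Vreteno, a Tudor protein that works with Armitage and Yb. It had 50.4, 56.3 and 53.0 CPM in homozygotes and 50.02, 51.8 and 47.9 CPM in controls. Homozygote 1 lay within the control range, and the log2 fold change was 0.10 (SE 0.06, adjusted p = 0.295). armi and vret kept a similar ratio, at 4.12 ± 0.0889 in homozygotes and 4.201 ± 0.123 in controls (SD, n = 3 each, exact permutation test, two-sided, p = 0.5).

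shu (FBgn0003401; 2R, 23841461 to 23843286, minus strand) encodes Shutdown, an FKBP-type co-chaperone needed to load piRNAs onto PIWI proteins. It had 61.6, 64.7 and 63.3 CPM in homozygotes and 64.8, 57.8 and 63.5 CPM in controls. All 3 homozygotes lay inside the control range, and the log2 fold change was 0.03 (SE 0.06, adjusted p = 0.775, edgeR). The 5 genes of the Yb body and its cofactors (fs(1)Yb, armi, vret, SoYb and shu) summed to 402, 426 and 405 CPM in homozygotes and 390, 393 and 397 CPM in controls. These sums did not overlap, with a ratio of means of 1.04 and an exact permutation p of 0.1 (two-sided), the smallest possible. Of single tested genes, 21.6% also had every homozygote above every control, and this sum was not planned beforehand. armi made up the larger part of each sum.

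**Figure D2:**
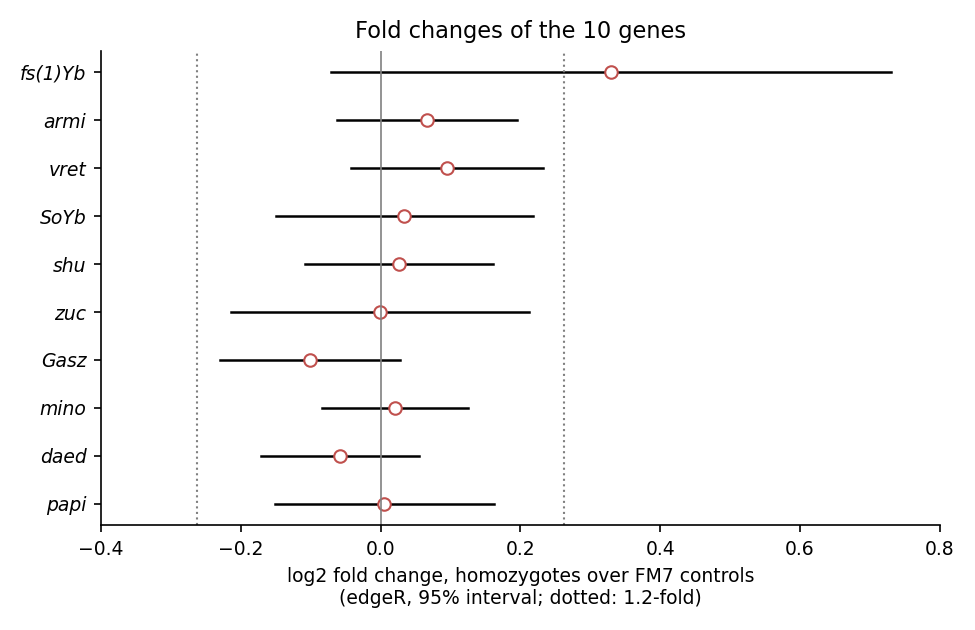
Log2 fold change of each gene, homozygotes over FM7 controls, as fitted by edgeR, with its 95% interval. The dotted lines mark 1.2-fold in either direction: the intervals of 9 genes lie between them, and that of fs(1)Yb reaches 1.66-fold at its upper end.

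The mitochondrial members had a summed level of 392, 390 and 383 CPM in homozygotes and 399, 381 and 401 CPM in controls, with overlapping groups (ratio of means 0.987, exact permutation p = 0.5, two-sided). With library sizes alone this ratio was 1.04. zuc (FBgn0261266; 2L, 11988735 to 11989882, minus strand) encodes Zucchini, the endonuclease of the pathway. Its RNA was at 21.9, 19.3 and 20.2 CPM in homozygotes and 22.4, 20.7 and 18.3 CPM in controls. Homozygotes lay inside the control range, and the log2 fold change rounded to 0.00 (SE 0.09, adjusted p = 0.995, edgeR).

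Gasz (FBgn0033273; 2R, 8167948 to 8170089, plus strand) encodes an ankyrin repeat protein of the outer mitochondrial membrane that recruits Armitage. It had 86.7, 79.7 and 83.2 CPM in homozygotes and 87.3, 86.7 and 93.7 CPM in controls. Homozygote 1 and control 2 both stood at 86.7 CPM when rounded, and otherwise controls were higher. The log2 fold change was -0.10 (SE 0.06, adjusted p = 0.239, edgeR). daed (FBgn0031398; 2L, 2214972 to 2216311, minus strand) encodes Daedalus, the partner of Gasz on that membrane. It had 49.3, 50.6 and 48.8 CPM in homozygotes and 52.8, 50.2 and 51.8 CPM in controls, so homozygote 2 stood above control 2. Its log2 fold change was -0.06 (SE 0.05, adjusted p = 0.435), and the ratio of Gasz to daed was 1.68 ± 0.0950 in homozygotes and 1.73 ± 0.0766 in controls (SD, n = 3 each, exact permutation test, two-sided, p = 0.6).

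mino (FBgn0027579; 3R, 27925191 to 27933077, plus strand) encodes Minotaur, a glycerol-3-phosphate acyltransferase-like protein of the mitochondrial surface. It had 178, 180 and 173 CPM in homozygotes and 176, 171 and 177 CPM in controls, and it varied least between libraries, with a coefficient of variation of 1.84% in homozygotes and 1.73% in controls. Counting error alone gives 1.54% in homozygotes and 1.66% in controls. The log2 fold change was 0.02 (SE 0.05, adjusted p = 0.775, edgeR). asRNA:CR46452, annotated on the other strand over 37.0% of the exon length of mino, had 0.0510% to 0.595% of the counts of mino, so few reads of mino were counted on the other strand. papi (FBgn0031401; 2L, 2220748 to 2225544, plus strand) encodes a Tudor-KH protein of the mitochondrial surface that acts in trimming of the ends of piRNAs. It had 56.4, 61.0 and 57.6 CPM in homozygotes and 60.9, 52.8 and 60.5 CPM in controls. Its log2 fold change was 0.01 (SE 0.07, adjusted p = 0.964), and control 2 was the lowest library.

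daed and papi are close neighbours on 2L, with 4436 bases between them, and neither passed the test. mio, which lies between them and encodes the nutrient sensing protein Missing oocyte, had 42.2, 35.7 and 42.4 CPM in homozygotes and averaged 33.2 ± 0.684 CPM in controls (SD, n = 3). Its log2 fold change was 0.27 (SE 0.08, adjusted p = 0.0382, edgeR), and it was chosen after its value was seen. The call was lost without homozygote 1 or 3 or FM7 control 1, 2 or 3, with adjusted p up to 0.143, and with the replicate block (adjusted p = 0.0637). CG15387 adjoins or overlaps the span of papi on the other strand and shares no exon bases with it. It was lower (-0.30, adjusted p = 0.0423, edgeR), as was CG34163, which overlaps 5.84% of the exon length of zuc on the other strand (-0.36, adjusted p = 0.044). Both were also chosen after their values were seen. The call of CG15387 was lost without homozygote 2 or 3 or FM7 control 1, 2 or 3 (adjusted p up to 0.133), and that of CG34163 without homozygote 1 or 2 or FM7 control 1 or 2 (adjusted p up to 0.134). With the replicate block their adjusted p were 0.08 and 0.0884.

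The levels of the 10 genes differed widely when set on one scale, CPM per kilobase of exon. armi was highest, at 52.7 ± 2.91 CPM per kb in homozygotes and 50.3 ± 1.44 in controls (SD, n = 3 each). Gasz (43.6 and 46.8 in homozygotes and controls) and mino (45.1 and 44.4) followed. Their libraries overlapped in homozygotes and did not in controls. daed (38.6 in homozygotes and 40.2 in controls) and shu (37.3 and 36.6) came next, and they overlapped in homozygotes and not in controls. vret (22.9 and 21.4) and papi (21.7 and 21.6) overlapped in both genotypes and changed places between them. zuc had 17.8 CPM per kb in both genotypes and SoYb 13.6 in homozygotes and 13.3 in controls. fs(1)Yb was the lowest by far, at 2.31 ± 0.190 CPM per kb in homozygotes and 1.84 ± 0.333 in controls, or 0.781% and 0.625% of the summed level of the 10. Among all tested genes armi stood at percentile 81.7 and fs(1)Yb at percentile 18.2 of the mean level per kb. In whole ovaries a low level can reflect few expressing cells or little RNA per cell, and these cannot be told apart. Lengths are the union of annotated exons. With the longest transcript, mino was at 49.6 against 44.7 CPM per kb and papi at 24.97 against 21.6 over all libraries, so that mino passed Gasz and papi passed vret.

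**Figure D3:**
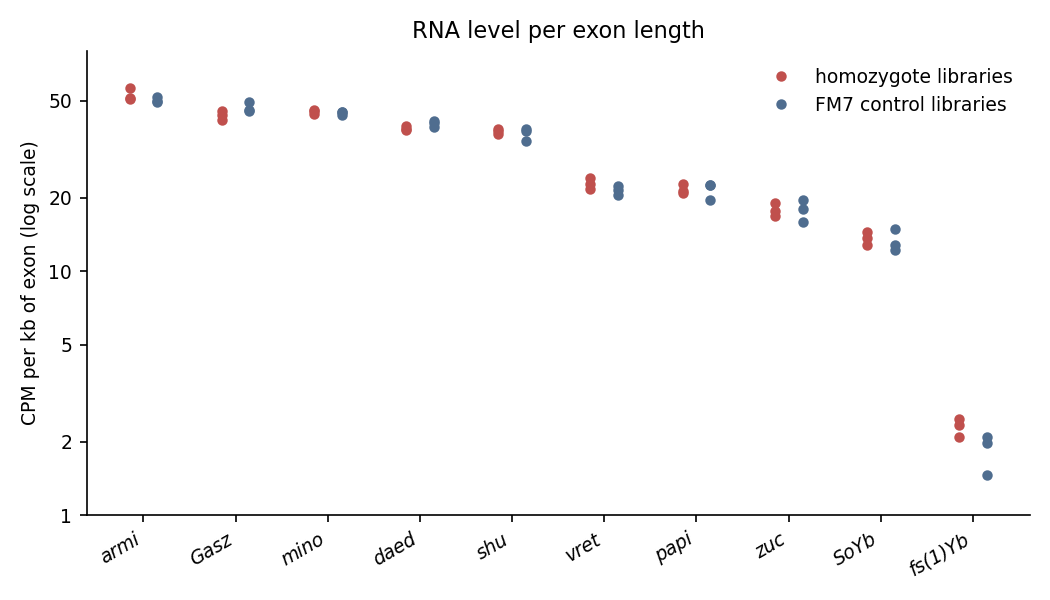
CPM per kilobase of exon for each of the 10 genes, on a log axis, in homozygous libraries (red, left) and FM7 control libraries (blue, right). armi is highest, at about 50 CPM per kb, 9 genes lie above 10 CPM per kb, and fs(1)Yb lies near 2 CPM per kb.

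The gene traffic jam (tj, 2L), which encodes the Maf transcription factor of the gonad soma named in the title of the study, fell in homozygotes, and fs(1)Yb was not called in either direction. tj had 66.2, 56.7 and 60.7 CPM in homozygotes 1 to 3, against 110.0, 122 and 103 CPM in FM7 controls 1 to 3, or -0.87 as log2 fold change (SE 0.08, edgeR's adjusted p = 5.5e-04). The ratio of fs(1)Yb to tj was 0.111, 0.153 and 0.136 in homozygotes and 0.0628, 0.0597 and 0.0498 in controls. The groups were well apart, with a ratio of means of 2.32 and an exact permutation p of 0.1 (two-sided), the smallest possible. On the log2 scale, tj changed by -0.87 and fs(1)Yb by 0.33. As tj is the divisor, its fall raises the ratio, and it makes up the larger part of this difference. Against the summed RNA of the 18 other follicle cell genes, fs(1)Yb had 13.3, 14.3 and 13.6 CPM per 1000 CPM in homozygotes and 12.1, 13.0 and 9.93 in controls (ratio of means 1.17, exact permutation p = 0.1, two-sided). Follicle cell genes moved in both directions, with cas at 8.65 CPM in homozygotes and 1.78 CPM in controls and Cad99C at 45.8 CPM and 78.9 CPM, and the sum is no measure of how many follicle cells there were. piwi, which encodes the PIWI protein that binds these piRNAs, had 234, 259 and 249 CPM in homozygotes and 227, 220 and 225 CPM in controls. Every homozygote stood above every control, as in 21.6% of all tested genes. piwi missed the threshold by edgeR (0.14 on the log2 scale, SE 0.05, adjusted p = 0.098) and passed it with library sizes alone (0.22, adjusted p = 0.0298).

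**Figure D4:**
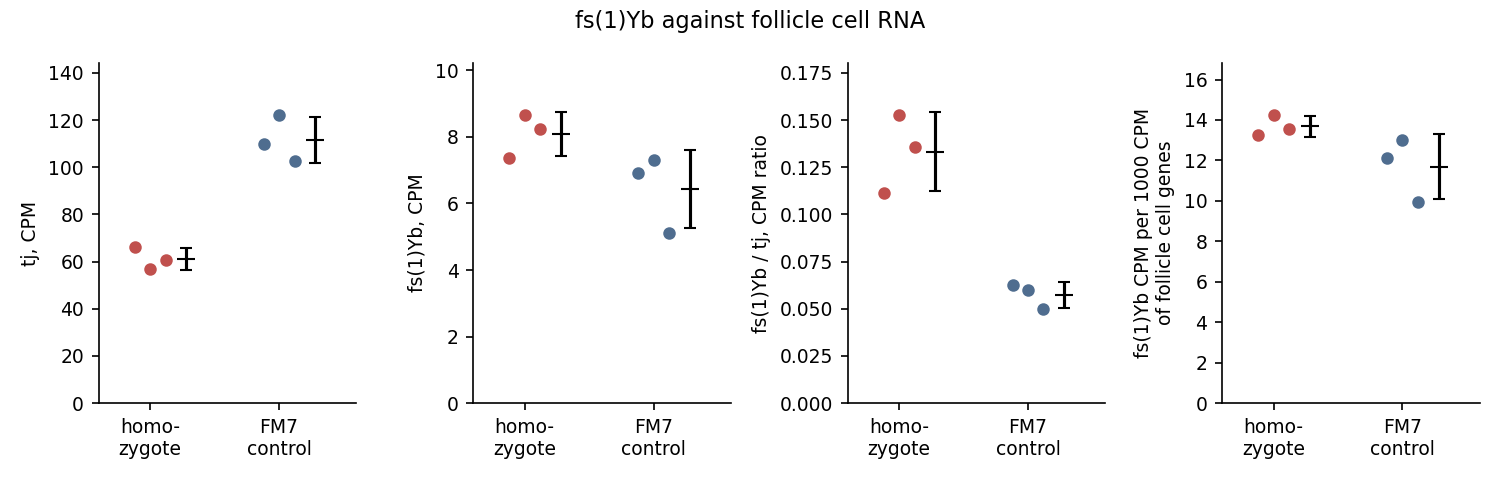
From left to right, CPM of tj, CPM of fs(1)Yb, their ratio, and fs(1)Yb per 1000 CPM of the other follicle cell genes, by library (red homozygotes, blue FM7 controls, bars mean and SD of 3 libraries). tj is lower in all 3 homozygotes, and the ratio of fs(1)Yb to tj is 2.32 times as high in homozygotes.

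Markers of other cell types differed between the same libraries. Among 10 tested haemocyte genes, 7 rose in homozygotes (Hml, Pxn, PPO1, PPO2, NimC1, eater and Sr-CI) and srp, a GATA factor gene, fell. The shares over all tested genes were 11.7% higher and 7.75% lower. The fitted folds of the 7 lay between 8.65 and 13.7, with Pxn, a peroxidasin gene, at 29.4 CPM in homozygotes and 3.34 CPM in controls and PPO2, a prophenoloxidase gene, at 7.52 CPM in homozygotes and 0.799 CPM in controls. Their calls numbered 6 or 7 in every alternative, and the lower calls 1, or 3 without FM7 control 3. The whole list summed to 682 to 785 CPM in homozygotes and 645 to 963 CPM in controls. Most of that sum was the collagen genes Col4a1 (359 CPM in homozygotes and 421 CPM in controls) and vkg (268 CPM in homozygotes and 316 CPM in controls), neither of them called, so the overlapping sums do not show the 7 markers. The haemocyte markers He and lz were at or below 0.418 CPM in every library.

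Of 13 muscle sheath genes, edgeR called 9 higher and 0 lower, and 12 were higher and 0 lower at an unadjusted p under 0.05. Of all tested genes it called 11.7% higher and 7.75% lower. DESeq2 called 12 and limma-voom 7. The number of calls moved with single libraries: 0 were left without FM7 control 1 and 1 without FM7 control 3. It was 3 without homozygote 2, 4 without homozygote 3 and 4 without the filter. At an unadjusted p under 0.05 by edgeR, 10 were higher without FM7 control 1, 9 without FM7 control 3 and 12 without any other library. The list summed to 836 to 1117 CPM in homozygotes and 673 to 756 CPM in controls. Of 8 tested fat body genes 2 were higher and 1 lower by edgeR, DESeq2 called 4 higher and 1 lower, and 1 was higher without FM7 control 1 or 3. The fat body list summed to 2388 to 2962 CPM in homozygotes and 3835 to 4062 CPM in controls, a direction set by the yolk protein gene Yp1, at 2111 CPM in homozygotes and 3544 CPM in controls, which follicle cells also express. The 2 higher genes were FASN1, a fatty acid synthase gene (439 CPM in homozygotes and 282 CPM in controls), and fit (3.89 CPM in homozygotes and 0.104 CPM in controls). The part of these differences in the levels of the 10 genes was not tested.

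By Pearson correlation, the 5 genes whose log2 CPM followed fs(1)Yb most closely over the 6 libraries were CG10638 (Pearson r 0.996), Arp3 (0.995), NT5E-2 (0.994), Sf3b1 (0.991) and CG6330 (0.990), among 6802 genes with a mean of at least 10 CPM. These are the top of many comparisons over few libraries that fall into 2 genotypes, and the values are a description. None of the 5 was past the threshold between genotypes by edgeR. Within the 10, vret was the most alike (0.901) and Gasz the most opposed (-0.965).

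In the rest of the piRNA pathway, 5 genes rose and 3 fell, all of them in the lists of germline nuage, nuclear silencing and cluster transcription. Among 11 other genes of piRNA maturation, precursor export and chaperones, 0 rose and 0 fell by edgeR, at an unadjusted p under 0.05 as well, and likewise by limma-voom and DESeq2 (2 lower at an unadjusted p under 0.05 by DESeq2). Without FM7 control 3, edgeR called 1 lower. Their median log2 fold change was -0.07. They include Hen1, the methyltransferase of piRNA ends (19.6 CPM in homozygotes and 21.1 CPM in controls), and Nbr, the trimming exonuclease (139 CPM and 144 CPM). Of 10 other genes of mitochondrial import and dynamics, 0 were higher and 0 lower by edgeR, with 0 higher and 1 lower at an unadjusted p under 0.05, while DESeq2 called 1 lower and limma-voom 0, and the median was 0.06. With library sizes alone 3 of them were called higher.

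Among 11 germline nuage genes, 4 rose and 0 fell in homozygotes by edgeR, and 4 were higher and 0 lower at an unadjusted p under 0.05. Of all tested genes edgeR called 11.7% higher and 7.75% lower. DESeq2 called 4 of them higher and limma-voom 2, neither called any lower, and the median log2 fold change was 0.11. qin, a Tudor and RING protein gene, had 43.0, 50.2 and 49.7 CPM in homozygotes and 34.3, 34.5 and 37.5 CPM in controls (0.43 on the log2 scale, SE 0.07, adjusted p = 0.00641, edgeR). krimp, another Tudor gene, had 93.8, 88.0 and 96.5 CPM in homozygotes and 78.3, 73.4 and 77.0 CPM in controls (0.28, SE 0.06, adjusted p = 0.0114), and its adjusted p was 0.0559 without homozygote 3. In both, all homozygotes stood above all controls, as in 21.6% of all tested genes. aub, which encodes a PIWI protein of germ cells (0.22, adjusted p = 0.0475), and the helicase gene spn-E (0.16, adjusted p = 0.0486) passed narrowly and were lost whichever of the 6 libraries was left out (highest adjusted p 0.16 for aub and 0.165 for spn-E) and with the replicate block (0.0906 and 0.0987, in that order).

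Among 13 nuclear silencing genes, 2 were lower and 0 higher by edgeR (2 lower and 0 higher by DESeq2, 1 and 0 by limma-voom, and 7 lower and 2 higher at an unadjusted p under 0.05), with a median log2 fold change of -0.13. With library sizes alone 2 were called higher and 1 lower. nxf2, part of the complex that carries out Piwi-directed silencing, had 44.8, 44.3 and 42.7 CPM in homozygotes, all below the 57.2, 54.9 and 53.2 CPM of controls (-0.33, SE 0.05, adjusted p = 0.00531, edgeR). Every homozygote stood below every control in 20.1% of all tested genes. mael passed narrowly (-0.21, adjusted p = 0.0492), and its call was lost in every fit without 1 library but that without FM7 control 2, with adjusted p up to 0.148, and with the replicate block (0.0681). Among 11 genes of germline cluster transcription and export, moon, the transcription factor gene of germline clusters, was lower, at 21.3, 21.4 and 20.6 CPM in homozygotes against 35.6, 32.5 and 31.2 CPM in controls (-0.65, SE 0.07, adjusted p = 0.00102). kipf, which encodes a zinc finger protein of those clusters, was higher (0.22, adjusted p = 0.04), and its call was lost without homozygote 2 or 3 or FM7 control 1, 2 or 3, with adjusted p up to 0.141, and by DESeq2 (0.07) and with the replicate block (0.0607). Over these 4 lists of other piRNA pathway genes, 8 of 46 were called (17.4%), a share near the 19.5% of all tested genes. Leaving out any 1 library reduced the 5 higher calls to between 1 and 3, and without FM7 control 3 the lower calls numbered 5.

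**Figure D5:**
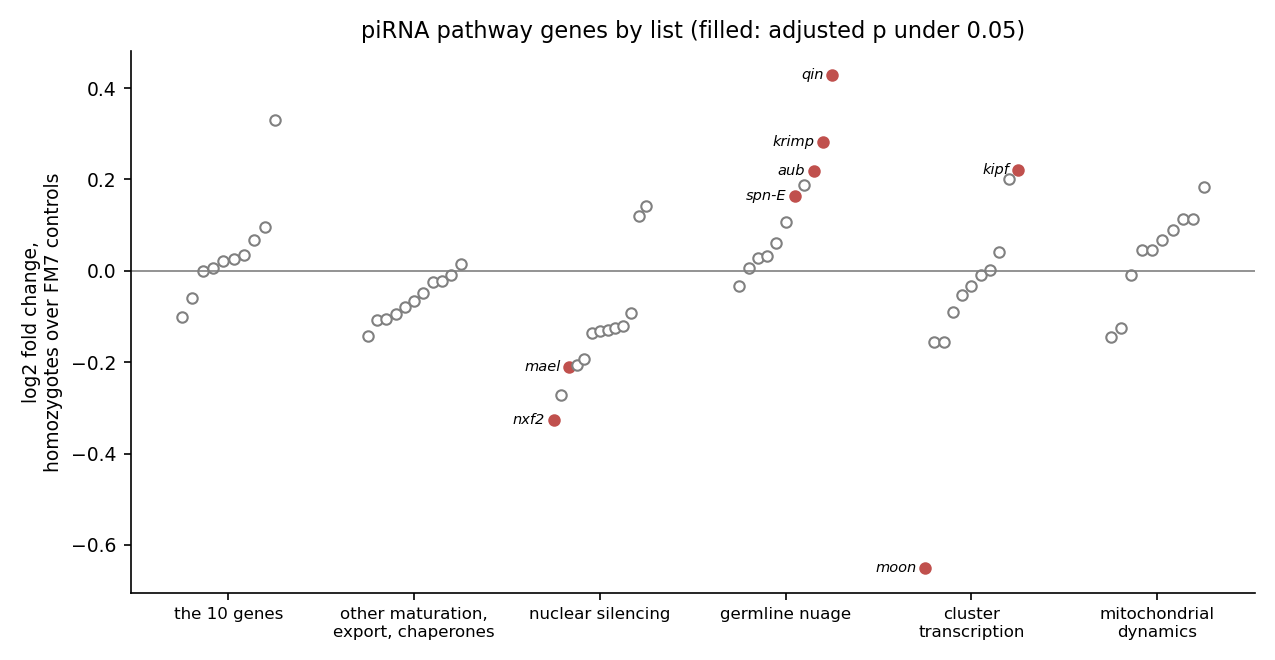
Log2 fold change, homozygotes over FM7 controls, of the 10 genes and of 5 other lists, with a point per tested gene. Filled and named points have an adjusted p under 0.05 by edgeR: none of the 10 genes, nxf2 and mael below 0 in nuclear silencing, qin, krimp, aub and spn-E above 0 in germline nuage, and moon below and kipf above 0 in cluster transcription.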

How the data were processed

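The authors deposited raw counts, as whole numbers, for genes and transposon families. Libraries were strand-specific polyA libraries of TRIzol-extracted RNA, per the labels' protocols. The tools named are STAR 2.7.8a, featureCounts 2.0.1 and DESeq2 1.30.1, with no roles, per the submitters' processing notes. Build, annotation release, strand setting and treatment of multi-mapped reads: not given in the sources used here. Symbols, positions and exon lengths came from Ensembl release 115 (BDGP6.54), which may not be the authors' build, and 35 gene identifiers had no match.

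Counts were tested with edgeR 4.0.16 (R 4.3.3): filterByExpr by group, TMM scaling and the robust quasi-likelihood test over 9150 genes and 79 transposon families together, with Benjamini-Hochberg adjustment at 0.05. CPM uses TMM-scaled sizes. The SE was derived from the unshrunken coefficient and its F statistic, and 95% intervals use the t distribution with the fitted degrees of freedom. Alternatives were DESeq2 1.42.0, limma-voom (limma 3.58.1), other scalings, no filter, the replicate block and leaving out each library. Likeness used log2(CPM + 0.5). The procedure was tested on simulated data. Replicates differed by more than sampling noise (chi-square per degree of freedom 8.18 to 38.9).

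The members and the 10 other lists were chosen with earlier results of these data known. All 136 list entries were found, 9 through a synonym; members were left out of the mitochondrial list, and vas stands in the germ cell and nuage lists. Named genes were the 10 members, tj, flam and piwi, the called genes of each pathway list (at most 6), and the 5 genes most like fs(1)Yb. Neighbours and overlapping genes of members, BoYb, Hen1, Nbr and the named cell type markers fall outside this rule and were chosen with their values known.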

Additional observations from a re-analysis of the deposited data

How the results depend on the processing

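None of the 10 genes was called in any of the 14 alternatives: 8 with another scaling, filter, tool or the replicate block and 6 without 1 library. The log2 fold change of fs(1)Yb ran from 0.18 to 0.42 without 1 library and from 0.32 to 0.41 in the others, and vret came nearest to the threshold (adjusted p = 0.0666, edgeR with library sizes alone). The members' median log2 fold change was 0.11 with library sizes alone, where that of all genes was 0.07, and -0.01 without FM7 control 2. Titles give both genotypes numbers 1 to 3. Deviations of same-numbered libraries correlated at -0.30, -0.07 and -0.04, and those of libraries with unlike numbers at -0.19 to 0.28. With 3 libraries per genotype, these values show no sign of pairing but cannot tell if the numbers stand for pairs. With the replicate block 674 genes were higher and 347 lower, against 1071 and 709 without it, 0 of the 10 were called, and 2 other piRNA pathway genes were higher, against 5. Without 1 library, 522 to 976 genes were higher and 225 to 853 lower (522 and 547 higher without homozygote 3 or FM7 control 1, and 314, 225, 286 and 425 lower without homozygotes 2 and 3 and FM7 controls 1 and 2 in turn), and 1 to 3 other piRNA pathway genes were higher and 2 to 5 lower. With library sizes alone 320 genes were lower and 82.8% of calls were higher, against 60.2%. Without the filter 2, and by limma-voom 3, other piRNA pathway genes were higher. The calls of mael, CG34163 and CG15387 were also lost with upper quartile scaling and with library sizes alone. Alternatives for the ratios between members and the sums of 5 genes were chosen after seeing the data. The ratio of Gasz to daed, homozygotes over controls, was 0.971, ran from 0.948 to 1.002 without 1 library and passed 1 without homozygote 2, and that of the summed mitochondrial members was 0.987 and turned to 1.04 with library sizes alone. The cause of these changes was not tested. Among the 10, fs(1)Yb had the fewest counts: counting error alone gives its ratio a 95% interval of 1.11 to 1.44, which leaves out the spread between libraries, and PCR reads are not independent molecules.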
